A study of Mus musculus with 18 samples.

Results

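The genes described here encode the subunits of potassium channels and of voltage-gated calcium channels. They were taken by symbol, as every gene row named Kcn with a family letter and a number or named as a calcium channel alpha, alpha2delta, beta or gamma subunit. The rule took 118 of 41325 rows, 92 potassium channel genes and 26 calcium channel genes, and it used no measured value. Their RNA was measured in cells of the mouse ovary around ovulation, in 18 libraries of 3 each. The groups were mural granulosa cells at 0, 4 and 12 h after human chorionic gonadotropin (hCG) and cumulus cells at the same times. All mice were wild type. Strain and age are not stated in the labels, nor whether libraries of a group came from separate animals, so p-values speak of the spread between these libraries, and that spread may be technical.

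Granulosa cells fill the ovarian follicle. Mural cells line its wall, cumulus cells surround the oocyte, and hCG stands in for the luteinizing hormone (LH) surge that makes the follicle ovulate. Potassium channels set the resting voltage of a cell and bring it back after depolarization. Voltage-gated calcium channels open on depolarization and let in calcium, which acts on kinases, transcription factors and secretion. Each channel is built around pore subunits, and auxiliary subunits change its gating and the number of channels that reach the membrane.

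Groups follow the library titles. Of the 9 titles naming cumulus cells, 8 carried the mural cell type as a label and 1 carried none. The summed level of 5 mural markers, at 2021 to 5581 counts per M counts (CPM, M for mega) in mural libraries and 85.4 to 389 CPM in cumulus libraries, separated the titles. A sum of 6 cumulus markers was higher in cumulus libraries at 0 h, at 1496 to 1768 CPM against 1066 to 1165 CPM in mural libraries. It was lower in cumulus libraries later, at 375 to 796 against 797 to 946 CPM at 4 h and 394 to 479 against 552 to 743 CPM at 12 h. Libraries held 32.2 to 47.9 M counts, and 3 counts, the most that 0 counts in a library allow, came to 0.0626 to 0.0931 CPM. Every pair of libraries of a group differed by more than counting error. Replicate 1 of the cumulus cells at 0 h and replicate 3 at 4 h stood apart most, with a chi-square per degree of freedom of up to 78.6 at 0 h and 260 at 4 h against at most 37.5 between mural libraries. The summed level of 15 oocyte markers differed with them. It was 426, 2007 and 2083 CPM in cumulus libraries of 0 h, 2375, 1226 and 7596 CPM at 4 h and 8.54, 11.4 and 6.52 CPM at 12 h, against 137 to 644 CPM in mural libraries. Both libraries are kept here, and counts are given without them as well. In RNA from many cells, fewer cells of a type and less RNA per cell cannot be told apart.

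Of the 118 channel genes, 91 had enough counts to be tested. The other 27 reached at most 34 counts in any library and a group mean of at most 0.491 CPM. Among them were the voltage-gated pores Kcna1, Kcna2, Kcna3, Kcna6, Kcna10 and Kcnc1, and the silent subunits Kcnf1, Kcns1 and Kcnv1. The inward rectifiers Kcnj1, Kcnj9, Kcnj10, Kcnj11, Kcnj13 and Kcnj15, the leak channels Kcnk4, Kcnk7, Kcnk9, Kcnk12 and Kcnk16, and the auxiliary Kcne1, Cacna2d4, Cacng1, Cacng2, Cacng3 and Cacng6 were among them too. None of the 118 was at 0 in all 18 libraries. Channel genes took a small share of the counts. It was 0.102 to 0.112% in mural libraries at 0 h, 0.0725 to 0.0882% at 4 h and 0.0733 to 0.0788% at 12 h. In cumulus libraries it was 0.0949 to 0.12% at 0 h, 0.0656 to 0.111% at 4 h and 0.0392 to 0.0411% at 12 h, where all 3 libraries lay below every other library. Averaged over the 6 groups and divided by exon length, the highest levels were those of Kcnk5 (16.6 CPM per kilobase), Cacnb3 (9.37), Cacna2d1 (8.63), Kcnh2 (7.37) and Cacna1a (7.33).

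**Figure D1:**
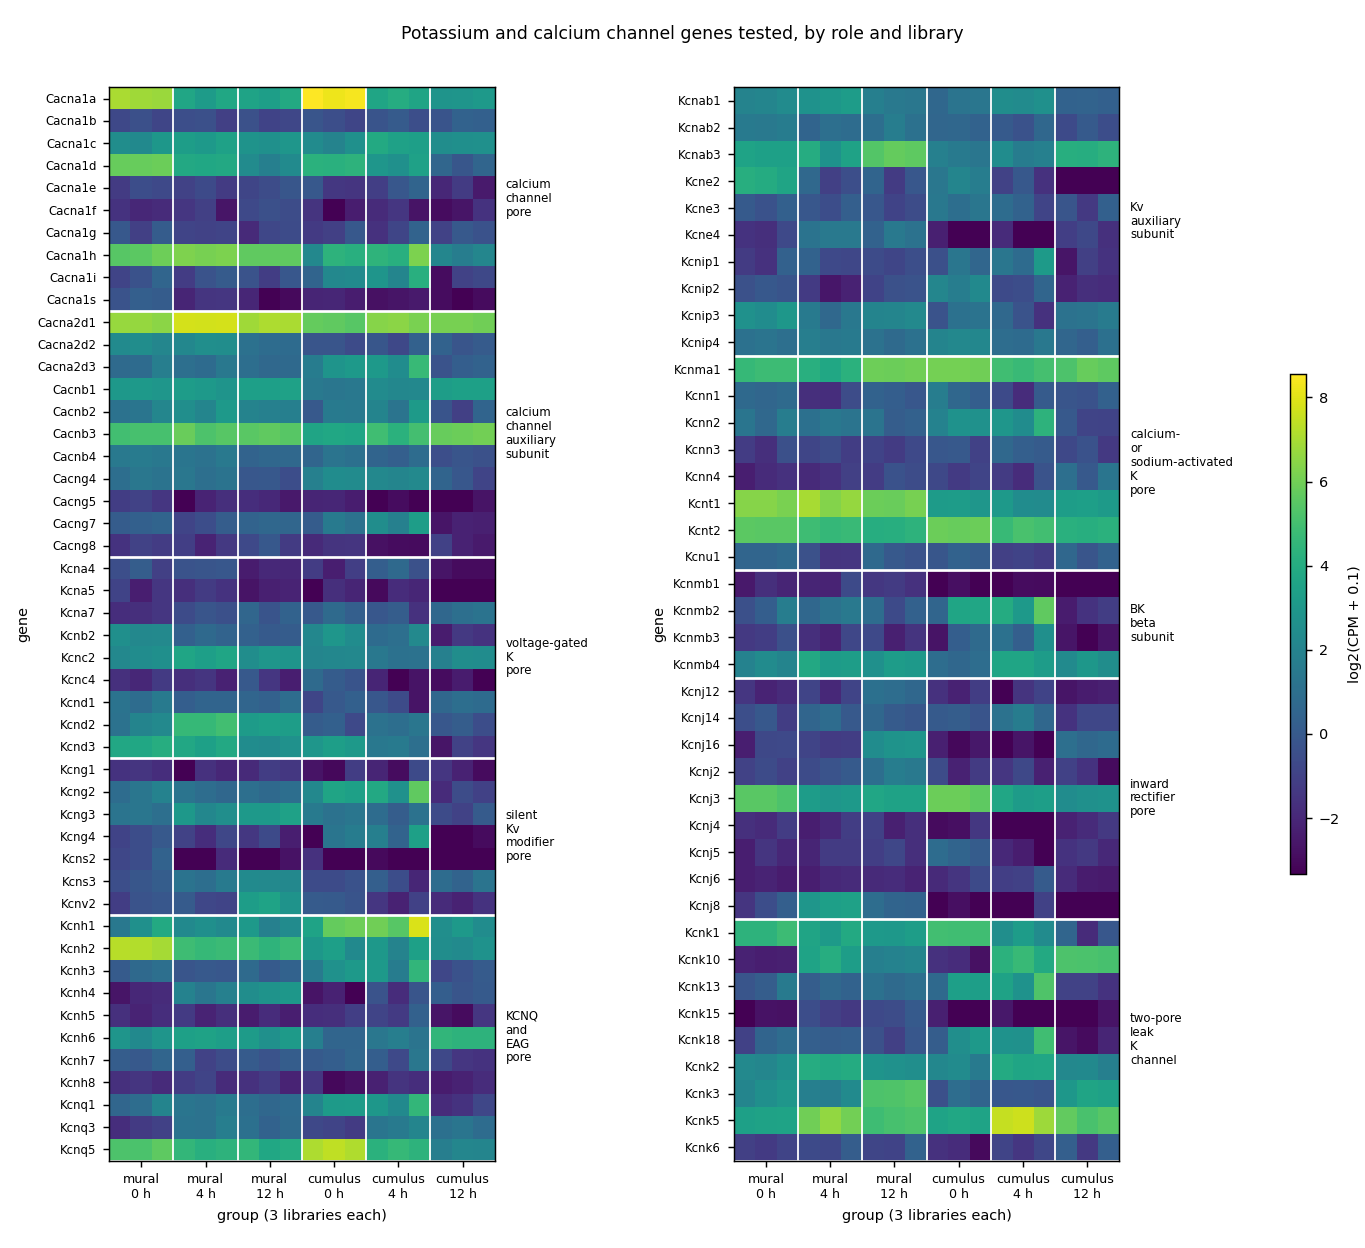
Level of 88 of the 91 tested channel genes (rows, grouped by role) in each of the 18 libraries (columns, by cell type and time after hCG), as colour on the log2(CPM + 0.1) scale. Kcnk5, Kcnk10 and Kcnd2 brighten at 4 h, and Cacna1a and Cacna1d darken after 0 h. In the right-hand columns, cumulus cells at 12 h, many of the 42 genes that fell there are dark. Colour shows level and not change, so some that fell, such as Kcnma1 and Kcnt2, stay bright.

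A gene is called here when its adjusted p is under 0.05 (edgeR, over 19941 genes tested), and "rose" and "fell" are used of called genes only. Log2 changes are given ± SE, and each group has n = 3 libraries. In mural cells, 20 of the 91 tested channel genes rose and 17 fell from 0 to 4 h, where 22.8% of all tested genes rose and 22.3% fell. From 0 to 12 h, 22 rose and 17 fell (all genes 21.6% and 19%), and from 4 to 12 h 11 rose and 16 fell (18.3% and 16.1%). Their median log2 changes were 0.03, 0.00 and -0.10, against -0.06, -0.05 and 0.01 over all genes. Against 0 h the shares of channel genes called in mural cells were thus close to those of all genes. With library totals in place of scaled totals 14 rose and 18 fell at 4 h. Without mural 0 h replicate 1, only 12 were called higher at 4 h, and between 4 and 12 h only 6 without mural 4 h replicate 2 and 7 without mural 12 h replicate 1.

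In cumulus cells, 18 channel genes rose and 22 fell from 0 to 4 h (all genes 25% and 22.8%), with a median of 0.33 against 0.13. Fitted on only the groups compared, 10 rose at 4 h and 12 rose from 4 to 12 h. From 0 to 12 h 18 rose and 42 fell (31.2% and 32.9%), and from 4 to 12 h 20 rose and 45 fell (29.2% and 31.3%). The medians were -1.20 and -0.87 against -0.09 and -0.04 over all genes. Falls among channel genes therefore outnumbered rises at 12 h, whereas the 2 directions were near balance over all genes. Without the 2 libraries that stand apart the counts were 18 and 23, 18 and 42, and 18 and 43. With the oocyte marker sum as a covariate the falls at 12 h came to 11 against 0 h and 11 against 4 h. The shares over all genes under that covariate are not given here, so these counts do not show a loss particular to channel genes. The marker sum does not pass 11.4 CPM in cumulus libraries at 12 h and is at least 426 CPM in their earlier ones, so the covariate and the time overlap. The comparisons share libraries: both against 0 h share the 0 h group, and those of 12 h share the 12 h group.

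Cumulus cells were also set against mural cells at each time. At 0 h 23 channel genes were higher in cumulus cells and 28 lower (all genes 21.5% and 25.3%), and at 4 h 22 were higher and 29 lower (27.6% and 27%). With same-numbered libraries as a block over the 6 libraries of 4 h, or with only the groups compared, 18 were lower at 4 h. By 12 h 3 were higher and 46 lower (18% and 20.5%), with a median of -1.37 against -0.07. At 0 h the count higher fell to 11 without mural 0 h replicate 1 or without replicate 2, and to 13 and 12 without cumulus 0 h replicate 2 and replicate 3. The oocyte covariate gave 10 higher at 0 h, 4 higher at 4 h, and 7 higher and 20 lower at 12 h. Here too the shares over all genes under the covariate are not given. Between the cell types the change from 0 to 4 h differed for 15 channel genes, higher in cumulus cells for 5 and lower for 10 (all genes 6.78% and 7.26%). The count of 5 became 9 without cumulus 4 h replicate 2. The change from 0 to 12 h differed for 40, higher for 8 and lower for 32 (20.1% and 20%).

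**Figure D2:**
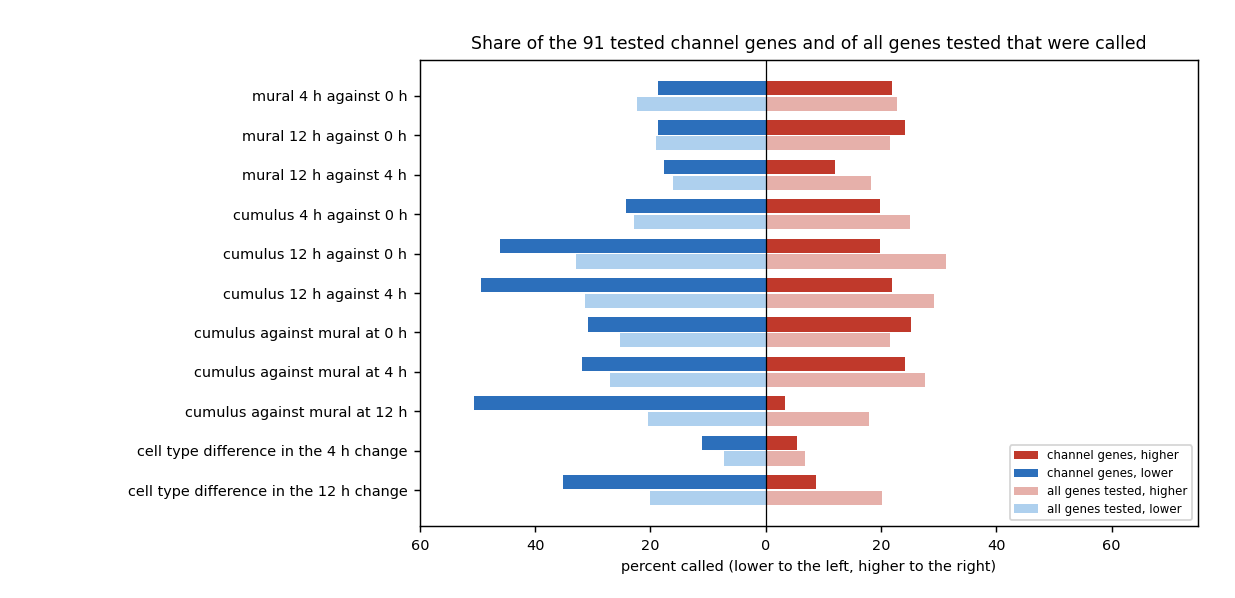
Percent of genes called higher (right) and lower (left) in each of the 11 comparisons, for the 91 tested channel genes and for all 19941 tested genes. The channel genes part from all genes where cumulus cells of 12 h are compared: 42 of 91 fell against 0 h where 32.9% of all genes did, and 46 of 91 were below mural cells where 20.5% of all genes were.

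The K2P channels pass a constant leak of potassium that sets the resting voltage. Of their 9 tested genes, 4 rose and 1 fell in mural cells at 4 h (all genes 22.8% and 22.3%), and 3 rose and 1 fell in cumulus cells (25% and 22.8%). By 12 h 4 rose and 1 fell in mural (21.6% and 19%) and 4 rose and 3 fell in cumulus cells (31.2% and 32.9%). Kcnk5 encodes TASK-2, an alkaline-activated leak channel. It stood at 10.7, 11.3 and 11.8 CPM in mural libraries of 0 h, 63.7, 97.2 and 65.9 CPM at 4 h and 28.6, 34.5 and 37.3 CPM at 12 h. In cumulus libraries it was at 11.9, 13.3 and 11.6 CPM, then 180, 198 and 113 CPM, then 51.8, 34.8 and 43.7 CPM. Both cell types thus began level, peaked at 4 h and stayed above 0 h at 12 h, with no overlap between times. The rise at 4 h was 2.75 ± 0.21 in mural cells (adjusted p = 8.79e-09) and 3.74 ± 0.22 in cumulus cells (2.71e-10), and at 12 h 1.57 ± 0.20 (5.47e-06) and 1.82 ± 0.20 (4.90e-07). At 4 h the cumulus level was above the mural one by 1.12 ± 0.20 (adjusted p = 0.000158). The rise itself was larger in cumulus cells by 0.99 ± 0.28 (0.0251), a call lost without mural 4 h replicate 1 (0.88), mural 4 h replicate 3 (0.91), cumulus 0 h replicate 1 (0.97) or cumulus 4 h replicate 1 (0.92). With the oocyte covariate the cumulus rise at 12 h was 1.08 and not called.

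Kcnk10 encodes TREK-2, a leak channel opened by stretch, acid and lipids. At 0 h it was near the detection floor, at 0.117, 0.101 and 0.109 CPM in mural libraries and 0.218, 0.18 and 0.046 CPM in cumulus libraries. At 4 h the mural libraries held 11.9, 16.9 and 9.57 CPM and the cumulus libraries 19.8, 25.2 and 14.7 CPM. Thereafter the cell types parted, with 3.34, 3.71 and 4.19 CPM in mural and 37.9, 36 and 33.5 CPM in cumulus libraries at 12 h. At 4 h the rise was 113-fold in mural cells (6.82 ± 0.36, adjusted p = 5.70e-11) and 133-fold in cumulus cells (7.06 ± 0.35, 3.23e-11). From 4 to 12 h Kcnk10 fell by 1.77 ± 0.25 in mural cells (2.56e-05) and rose by 0.85 ± 0.24 in cumulus cells (0.00557). At 12 h it was 9.55-fold higher in cumulus cells (3.26 ± 0.26, 3.72e-08), and its 12 h change was larger there by 2.85 ± 0.57 (0.000781). At 4 h the cumulus excess of 0.64 ± 0.24 (0.033) ended without any of mural 4 h replicates 1 (0.58) and 3 (0.48) and cumulus 4 h replicates 1 (0.64) and 2 (0.44). With the oocyte covariate the change from 4 to 12 h in cumulus cells was -0.89 and the difference between the cell types' 12 h changes 1.42, neither called.

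Kcnk3 encodes TASK-1, an acid-sensitive leak channel, and moved late. Mural libraries held 4.1, 5.97 and 7.43 CPM at 0 h, 3.36, 3.2 and 5.08 CPM at 4 h and 37.4, 38.6 and 44.5 CPM at 12 h. In cumulus libraries the values were 0.655, 1.82 and 1.31 CPM, then 0.831, 0.85 and 0.778 CPM, then 7.77, 12.1 and 11 CPM. The 12 h libraries lay above all earlier ones in each cell type, and mural above cumulus libraries at every time. Between 0 and 12 h Kcnk3 rose by 2.78 ± 0.29 in mural cells (adjusted p = 4.26e-07) and 3.01 ± 0.31 in cumulus cells (1.41e-07). At 12 h it was lower in cumulus cells (-1.96 ± 0.28, 2.98e-05), at -0.74 and not called with the oocyte covariate. The antisense gene Gm9899 shares 5.76% of its exon bases and stood at 6.76 CPM in mural cells at 12 h. The strand setting of the counting is not given, so reads of such an overlap cannot be told apart; antisense genes also share 1.72% of the exon bases of Kcnd3 and 3.81% of those of Cacna1a.

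Other leak channels kept to patterns of their own. Kcnk2, the TREK-1 gene, rose at 4 h in mural (1.64 ± 0.22, adjusted p = 7.06e-06) and cumulus cells (1.74 ± 0.22, 3.46e-06) and fell from 4 to 12 h, to 5.71 to 7.02 CPM and 3.41 to 4.81 CPM from 14.3 to 16.2 CPM and 12.7 to 15.3 CPM. Kcnk1, the TWIK-1 gene, fell. It went from 20.2 to 27.9 CPM in mural libraries at 0 h to 7.81 to 9.64 CPM at 12 h (-1.41 ± 0.35, 0.00315), and in cumulus libraries from 29.9 to 30.5 CPM to 0.176 to 1.36 CPM (-5.24 ± 0.43, 8.44e-09). The fall of Kcnk1 at 12 h was deeper in cumulus cells (cumulus minus mural -3.83 ± 0.53, 2.31e-05). Kcnk15 rose in mural cells at both times, from 0.0314 to 0.425 and 0.671 CPM on average, and Kcnk6 rose in cumulus cells at 12 h, from 0.14 to 0.842 CPM. Kcnk13 and Kcnk18 are taken up with the genes that varied alongside the oocyte markers.

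**Figure D3:**
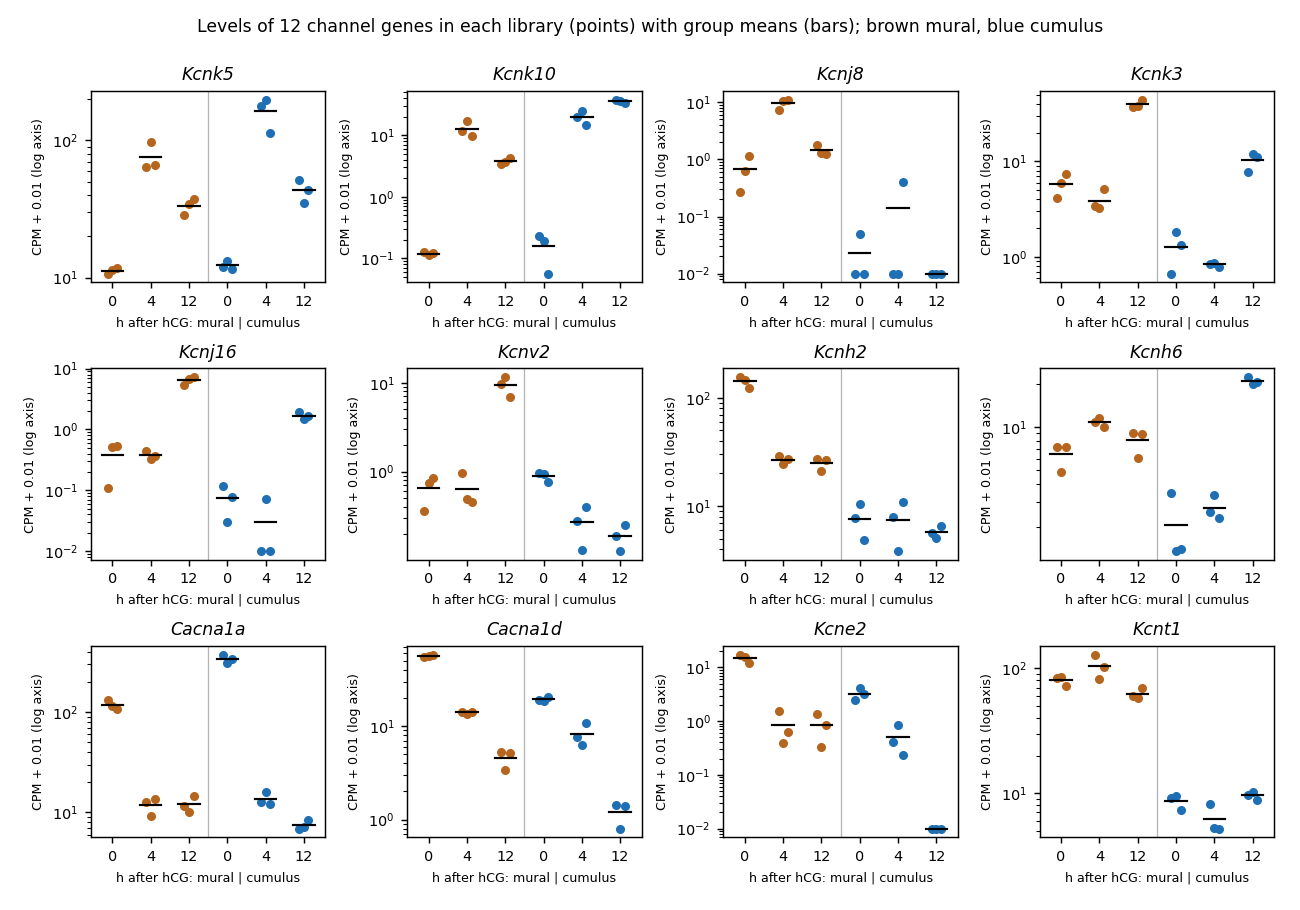
Level of 12 channel genes in CPM (log axis, CPM + 0.01) at 0, 4 and 12 h after hCG, with points for libraries and bars for group means of 3, mural cells in brown and cumulus cells in blue. Kcnk5 and Kcnk10 climb in both cell types by 4 h, Kcnk3 and Kcnj16 by 12 h, Kcnj8 peaks in mural cells at 4 h alone, and Cacna1a and Cacna1d descend in both.

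The bases just before the start of a gene are where the polymerase and nearby factors assemble, and LH acts in granulosa cells partly through cyclic AMP and factors that bind the cyclic AMP response element (CRE). Start-site windows are printed for 4 genes with different courses, so that they can be set side by side: Kcnk5 and Kcnk10, which rose in both cell types, Kcnj8, which rose in mural cells, and Kcnh2, which fell in mural cells. Each is the 250 bases before an annotated start, 5′ to 3′ on the minus strand of GRCm38.p6 as given by RefSeq, at chr14:20181783-20182032 for Kcnk5, chr12:98575128-98575377 for Kcnk10, chr6:142571615-142571864 for Kcnj8 and chr5:24329592-24329841 for Kcnh2. In GENCODE M21 the genes span 20140057 to 20181809 on chromosome 14 (Kcnk5), 98429437 to 98578310 on 12 (Kcnk10), 142564837 to 142571614 on 6 (Kcnj8) and 24319589 to 24351604 on 5 (Kcnh2). Capitals mark GGGCGG, the core of the GC box, or TGACG, the CRE core, each searched on both strands (as CCGCCC and CGTCA on the reverse).
Kcnk5: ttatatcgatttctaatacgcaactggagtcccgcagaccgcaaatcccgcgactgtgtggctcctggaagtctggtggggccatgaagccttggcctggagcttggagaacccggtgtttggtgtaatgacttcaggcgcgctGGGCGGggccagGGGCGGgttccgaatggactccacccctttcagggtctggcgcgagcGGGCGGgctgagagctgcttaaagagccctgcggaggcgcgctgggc
Kcnk10: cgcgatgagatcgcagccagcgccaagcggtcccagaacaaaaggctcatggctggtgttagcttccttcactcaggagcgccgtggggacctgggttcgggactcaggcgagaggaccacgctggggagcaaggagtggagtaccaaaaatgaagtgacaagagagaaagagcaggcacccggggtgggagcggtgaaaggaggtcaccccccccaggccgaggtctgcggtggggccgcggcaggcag
Kcnj8: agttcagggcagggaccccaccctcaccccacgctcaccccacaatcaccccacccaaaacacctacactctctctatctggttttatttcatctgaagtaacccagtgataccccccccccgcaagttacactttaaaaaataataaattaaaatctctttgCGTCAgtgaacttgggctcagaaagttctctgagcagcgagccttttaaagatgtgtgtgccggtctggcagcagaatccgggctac
Kcnh2: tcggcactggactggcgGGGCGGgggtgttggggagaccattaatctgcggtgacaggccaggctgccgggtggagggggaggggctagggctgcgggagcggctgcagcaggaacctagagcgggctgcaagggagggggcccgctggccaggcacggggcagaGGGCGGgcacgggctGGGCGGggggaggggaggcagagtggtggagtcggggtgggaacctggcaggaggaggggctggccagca
The window of Kcnk5 holds GGGCGG at -106, -94 and -47 and that of Kcnh2 at -233, -85 and -70, counted from the start. In Kcnj8 the sole match is CGTCA at -87, and the Kcnk10 window printed has none of the motifs searched. Kcnk10 has a further window, at another start and not printed because more of it lies in an exon, and that window holds GGGCGG. The printed windows of Kcnk10 and Kcnh2 belong to starts inside the gene's span, and 27 bases of the Kcnk5 window lie in an annotated exon. G and C made up 62.8%, 64%, 49.2% and 73.6% of the bases of Kcnk5, Kcnk10, Kcnj8 and Kcnh2. RefSeq windows were at hand for 87 of the 118 channel genes and 23 of the 29 named by rule, and none for Kcnt1, Cacna1a, Kcnk3, Kcnq3 and Kcnv2 among others. Over the 121 windows of the channel genes, GGGCGG was found in 45.5% and TGACG in 15.7%, against 32.7% and 17.8% of 32851 windows of all genes. The full palindrome TGACGTCA, which contains the core, was in 1.55% of all windows and in 0 of 121. Such matches describe the letters and do not mark binding.

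Inward rectifiers pass potassium mainly into the cell and hold it near rest. Kcnj8 encodes Kir6.1, the pore of an ATP-sensitive potassium channel whose partner is the sulfonylurea receptor gene Abcc9. Mural libraries held 0.254, 0.604 and 1.11 CPM at 0 h, 7.32, 10.4 and 11.1 CPM at 4 h and 1.8, 1.31 and 1.22 CPM at 12 h. Cumulus libraries held at most 0.389 CPM, in cumulus 4 h replicate 3, and 7 of the 9 were at 0. The mural libraries of 4 h thus lay above every other library. In mural cells Kcnj8 rose by 3.87 ± 0.78 (14.6-fold, adjusted p = 0.000721) at 4 h, and at 12 h stood at 1.13 ± 0.73 from 0 h (0.25). Its fall from 4 to 12 h was 2.74 ± 0.73 (0.00835), with adjusted p = 0.0547 by DESeq2 and 0.0518 without mural 12 h replicate 3. Abcc9 was at 3.75, 7.93 and 3.56 CPM in mural cells and 0.457, 0.44 and 0.316 CPM in cumulus cells on average, lower in cumulus cells at 4 h (-4.17 ± 0.60, 2.16e-05).

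Kcnj16 encodes Kir5.1, which pairs with other inward rectifiers. In mural libraries it was at 0.0976, 0.504 and 0.524 CPM, then 0.433, 0.317 and 0.352 CPM, then 5.36, 6.64 and 7.25 CPM. In cumulus libraries it was at 0.109, 0.02 and 0.0689 CPM, then 0, 0.0607 and 0 CPM, then 1.92, 1.47 and 1.66 CPM. All 6 libraries of 12 h lay above the 12 earlier ones. From 0 to 12 h it rose by 4.10 ± 0.55 in mural cells (adjusted p = 7.85e-06) and 4.67 ± 0.65 in cumulus cells (5.87e-06). The classical inward rectifiers Kcnj2 (Kir2.1) and Kcnj12 (Kir2.2) rose in mural cells at 12 h, from 0.452 to 2.57 CPM and from 0.191 to 1.75 CPM, and were at most 0.573 CPM in every cumulus library. Kcnj14 (Kir2.4) rose at 4 h in both cell types, by 1.12 ± 0.42 (0.038) and 1.29 ± 0.41 (0.0157). Cumulus calls of Kcnj16 at 12 h were lost with the oocyte covariate, at a similar size against 0 h (4.74) and against 4 h (6.39) and at -1.89 against mural cells.

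Among the G-protein-gated inward rectifiers, Kcnj3 fell in both cell types, Kcnj5 fell in cumulus cells and was not called in mural cells, and Kcnj6 was not called against 0 h in either. Kcnj3 encodes GIRK1, which opens on Gi-coupled signals. It stood at 45.6, 44.8 and 36.9 CPM in mural libraries of 0 h, 9.42, 7.45 and 8.14 CPM at 4 h and 13.1, 11.2 and 11.4 CPM at 12 h. The cumulus libraries had 58.6, 58.1 and 48.1 CPM, then 12.9, 8.95 and 9.9 CPM, then 5.38, 6.19 and 6.52 CPM. The fall by 4 h was alike in size, 2.35 ± 0.15 (adjusted p = 9.32e-10) and 2.37 ± 0.15 (7.34e-10), and by 12 h it was deeper in cumulus cells (cumulus minus mural -1.35 ± 0.21, 6.70e-05). Kcnj5, the GIRK4 gene, was at 1.72, 1.32 and 1.01 CPM in cumulus libraries of 0 h and at most 0.157 CPM at 4 h and 0.293 CPM at 12 h, while mural libraries ran from 0.0976 to 0.48 CPM. It fell in cumulus cells by 3.93 ± 0.71 at 4 h (0.000187) and 2.54 ± 0.65 at 12 h (0.00233), the latter at -4.06 and not called with the oocyte covariate. Kcnj4, a classical inward rectifier (Kir2.3), fell in cumulus cells at 4 h, from 0.114 CPM to 0 counts in all 3 libraries.

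The Kv pores open on depolarization. Of 11 tested genes of the Kv1 to Kv4 families, 3 rose and 1 fell in mural cells at 4 h (all genes 22.8% and 22.3%), and 2 rose and 4 fell in cumulus cells (25% and 22.8%). By 12 h 2 rose and 3 fell in mural (21.6% and 19%) and 1 rose and 5 fell in cumulus cells (31.2% and 32.9%). Kcnd3 encodes Kv4.3, which carries a transient A-type current. Mural libraries held 13.7, 13.2 and 17 CPM at 0 h, 14, 10.6 and 14 CPM at 4 h and 5.42, 5.09 and 6.23 CPM at 12 h. Cumulus libraries held 7.48, 9.92 and 8.5 CPM, then 2.6, 2.91 and 1.92 CPM, then 0.0591, 0.41 and 0.264 CPM. Cumulus libraries were already lower at 4 h, mural libraries of 0 and 4 h overlapped, and in both cell types the 12 h libraries were the lowest. By 12 h Kcnd3 fell by 1.39 ± 0.28 in mural cells (adjusted p = 0.000572) and 5.12 ± 0.36 in cumulus cells (1.09e-09), a difference, cumulus minus mural, of -3.73 ± 0.45 (5.31e-06).

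Its relative Kcnd2, the Kv4.2 gene, went the other way in mural cells. The libraries of 0 h held 2.15, 4.03 and 4.65 CPM, those of 4 h 24.4, 24.5 and 30.9 CPM and those of 12 h 9.04, 10.5 and 9.64 CPM. Cumulus libraries stayed between 0.506 and 2.39 CPM. The rise at 4 h was 2.88 ± 0.29 in mural cells (adjusted p = 3.12e-07) and 1.26 ± 0.30 in cumulus cells (0.00225), larger in mural cells (cumulus minus mural -1.62 ± 0.41, 0.0136). Kcnc2, the Kv3.2 gene, was the single channel gene called in opposite directions at 4 h, at 4.57, 5.34 and 5.92 CPM before and 12.3, 10.2 and 12.5 CPM after in mural libraries, and at 4.15, 4.44 and 4.57 CPM before and 2.63, 2.03 and 2.11 CPM after in cumulus libraries. Its changes were 1.15 ± 0.21 (0.000179) and -0.96 ± 0.21 (0.0011), and of all genes tested 0.612% rose in mural and fell in cumulus cells.

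Kcnb2 encodes the delayed rectifier Kv2.2 and fell in both cell types at both times, at 12 h by 2.28 ± 0.39 (0.000104) and 4.76 ± 0.46 (5.97e-08). Among low genes of this class, Kcna7 (Kv1.7) was at 0.195 to 0.262 CPM in mural libraries of 0 h and rose there by 2.36 ± 0.49 at 12 h (adjusted p = 0.000704), with libraries of 0.747 to 1.43 CPM. In cumulus cells Kcna7 ran from 0.222 to 2.22 CPM, overlapped between 0 h and each later time, and was not called against 0 h. Kcnc4 (Kv3.4) fell in cumulus cells, from 1.61, 1 and 0.735 CPM at 0 h to at most 0.135 CPM at 4 h (-3.98 ± 0.91, 0.00145) and 0.0879 CPM at 12 h (-4.75 ± 0.99, 0.000417), at or near the floor. The 12 h value was -4.11 and not called with the oocyte covariate. Kcna4 (Kv1.4) fell by 12 h in both cell types and rose at 4 h in cumulus cells. Kcna5 (Kv1.5) fell in cumulus cells at 12 h, and Kcnd1 was not called against 0 h in either.

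Silent subunits of the Kcng, Kcns and Kcnv families form no channel alone and alter Kv2 channels they join. Kcnv2 encodes Kv8.2. Mural libraries held 0.351, 0.73 and 0.83 CPM at 0 h, 0.965, 0.476 and 0.441 CPM at 4 h and 9.55, 11.5 and 6.83 CPM at 12 h. In cumulus libraries the values went down, from 0.956, 0.92 and 0.758 CPM to 0.269, 0.121 and 0.389 CPM and then 0.177, 0.117 and 0.238 CPM. The mural libraries of 12 h stood above all others. Against 0 h Kcnv2 rose by 3.87 ± 0.43 in mural cells at 12 h (adjusted p = 8.18e-07), and in cumulus cells it fell by 1.73 ± 0.44 at 4 h (0.00369) and 2.28 ± 0.47 at 12 h (0.000388). The changes at 12 h differed, at -6.14 ± 0.63 for cumulus minus mural (8.21e-07). With the oocyte covariate the cumulus change at 12 h was -1.53 and not called. At 4 h the level in cumulus cells was lower (-1.24 ± 0.46, 0.0291). That call ended without mural 4 h replicate 1 (-0.80) or cumulus 4 h replicate 1 (-1.26) or 2 (-0.92), and with replicates as a block over the 6 libraries of 4 h (-1.26, adjusted p = 0.163).

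Kcng3 (Kv6.3) also rose in mural and fell in cumulus cells, from 1.92 to 2.42 CPM in mural libraries at 0 h to 8.26 to 11.1 CPM at 12 h (2.07 ± 0.32, adjusted p = 4.00e-05) and from 2.1 to 2.81 CPM in cumulus libraries to 0.41 to 0.977 CPM (-1.89 ± 0.34, 0.000106). Kcnv2, Kcng3 and the BK pore gene Kcnma1 were the 3 channel genes that rose in mural and fell in cumulus cells at 12 h, a pattern held by 1.51% of all genes. Kcns3 (Kv9.3) rose at 12 h in both cell types, from 0.819 to 4.75 CPM in mural and from 0.599 to 1.75 CPM in cumulus cells on average. Kcns2 (Kv9.2) fell in mural cells, from 0.765 to 0.0587 and 0.0166 CPM. Kcng2 rose at 4 h and fell by 12 h in cumulus cells, and Kcng1 was not called. Kcng4 (Kv6.4) was uneven in cumulus cells, at 0, 2.36 and 3.08 CPM at 0 h and 3.41, 1.27 and 10.5 CPM at 4 h. At 12 h the group held 1 count, in replicate 3, a ratio to 4 h of 534 (95% exact interval 95.5 to 21142, for counting error only).

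The KCNQ and EAG families open on depolarization. Kcnh2 encodes the ERG channel Kv11.1 (hERG in humans). Mural libraries held 155, 146 and 124 CPM at 0 h, 29.2, 24.6 and 26.9 CPM at 4 h and 26.9, 21.2 and 26.9 CPM at 12 h. Cumulus libraries held 7.7, 10.3 and 4.89 CPM, then 7.86, 3.82 and 10.8 CPM, then 5.62, 5.01 and 6.47 CPM. At 0 h mural cells had 18.5-fold more (log2 cumulus minus mural -4.21 ± 0.30, adjusted p = 1.08e-08), and at 4 h and 12 h 3.58-fold (4.38e-05) and 4.38-fold more (1.50e-05). In mural cells Kcnh2 fell by 2.40 ± 0.28 by 4 h (1.76e-06) and 2.50 ± 0.28 by 12 h (1.05e-06), and in cumulus cells it was at -0.03 ± 0.28 (0.943) and -0.42 ± 0.28 (0.199). The changes differed between cell types by 2.37 ± 0.39 at 4 h (0.000513) and 2.08 ± 0.39 at 12 h (0.000441).

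Kcnh6 encodes the related Kv11.2. It was at 3.41, 1.34 and 1.38 CPM in cumulus libraries of 0 h, 2.51, 3.31 and 2.28 CPM at 4 h and 22.3, 20 and 20.6 CPM at 12 h, and at 4.86 to 11.5 CPM in all mural libraries. At 12 h the cumulus libraries passed every mural library, by 1.39 ± 0.29 (adjusted p = 0.000922), after lying below them at 0 and 4 h. The rise in cumulus cells was 3.37 ± 0.31 (4.04e-08), larger than the mural change of 0.32 ± 0.28 by 3.05 ± 0.41 (1.88e-05). Under the oocyte covariate the 12 h excess over mural cells was 0.48 and the difference between changes 1.82, neither called. The mural rise at 4 h (0.74 ± 0.28, 0.041) was not held in 11 of 18 leave-one-out fits, with the lowest value, 0.54, without mural 0 h replicate 2.

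Kcnh4 encodes an ELK channel and rose from near the floor. It was at 0.0585 to 0.175 CPM in mural libraries of 0 h, 2.44 to 3.73 CPM at 4 h and 5.59 to 7.6 CPM at 12 h. In cumulus libraries it was at 0 to 0.12 CPM, then 0.182 to 0.778 CPM, then 0.762 to 1.06 CPM. Against 0 h the rises at 12 h were 5.68 ± 0.60 (adjusted p = 4.12e-07) and 3.85 ± 0.64 (4.59e-05), and the level at 12 h was lower in cumulus cells (-2.85 ± 0.50, 0.000203), at -1.54 and not called with the oocyte covariate. Kcnq3, which with its relatives carries the M-current, rose alike in both. Its libraries ran from 0.195 to 0.491 CPM at 0 h, 2.16 to 4.09 CPM at 4 h and 1.23 to 2.32 CPM at 12 h, and the rise at 4 h was 3.10 ± 0.36 in mural (1.78e-06) and 2.88 ± 0.36 in cumulus cells (2.84e-06).

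Kcnq5, another M-current gene, went down. Cumulus libraries held 135, 171 and 138 CPM at 0 h, 18.7, 25 and 20.5 CPM at 4 h and 3.31, 4.22 and 4.12 CPM at 12 h. Mural libraries held 38.1, 36.2 and 48.5 CPM, then 23, 17.7 and 20.2 CPM, then 23, 13.2 and 16.2 CPM. Cumulus cells thus started above mural cells and ended below them. By 12 h the fall was 5.25 ± 0.22 in cumulus (adjusted p = 1.01e-12) and 1.23 ± 0.18 in mural cells (2.53e-05), a difference, cumulus minus mural, of -4.02 ± 0.27 (8.64e-09). Kcnh5 and Kcnh8 were not called against 0 h in either cell type, and Kcnh1, Kcnh3, Kcnh7 and Kcnq1 fell in cumulus cells at 12 h.

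Of 10 tested auxiliary subunits of Kv channels, 2 rose and 7 fell in cumulus cells at 12 h (all genes 31.2% and 32.9%), and 2 rose and 2 fell in mural cells (21.6% and 19%). At 4 h Kcne4 and Kcnab1 rose and Kcne2, Kcnip2, Kcnip3 and Kcnab2 fell in mural cells (22.8% and 22.3%). In cumulus cells Kcnab1 rose and Kcne2, Kcnip2 and Kcnip4 fell at 4 h (25% and 22.8%). Kcne2 encodes MiRP1, a small partner of KCNQ and ERG channels. Mural libraries held 17.4, 15.5 and 12.3 CPM at 0 h, 1.53, 0.381 and 0.617 CPM at 4 h and 1.32, 0.32 and 0.847 CPM at 12 h. Cumulus libraries held 2.51, 4.08 and 3.13 CPM, then 0.404, 0.85 and 0.222 CPM, and 0 counts in all 3 at 12 h. In mural cells Kcne2 fell by 4.16 ± 0.57 at 4 h (adjusted p = 2.00e-05) and 4.18 ± 0.56 at 12 h (1.86e-05), and in cumulus cells by 2.73 ± 0.56 at 4 h (0.000784). Against 3 counts over the group, the cumulus level at 12 h was at least 117-fold lower than at 0 h (adjusted p = 1.12e-06) and at least 29-fold lower than in mural cells (0.00011).

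Kcnip2 encodes KChIP2, which binds Kv4 pores such as Kcnd2 and Kcnd3. It was at 4.31, 3.12 and 4.94 CPM in cumulus libraries of 0 h, 0.539, 0.607 and 1.36 CPM at 4 h and 0.118, 0.205 and 0.185 CPM at 12 h. In mural libraries it was at 0.664 to 0.856 CPM, then 0.0634 to 0.3 CPM, then 0.421 to 0.723 CPM. Both cell types fell at 4 h, by 2.23 ± 0.51 in mural (adjusted p = 0.00162) and 2.30 ± 0.44 in cumulus cells (0.000301). From 4 to 12 h mural cells rose by 1.91 ± 0.52 (0.00756) and cumulus cells fell by 2.27 ± 0.50 (0.000808). By 12 h the changes from 0 h differed, at -4.26 ± 0.67 for cumulus minus mural (7.99e-05). With the oocyte covariate the cumulus change from 4 to 12 h was -1.31 and the cumulus minus mural level 1.93 at 4 h and -1.31 at 12 h, none called.

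Kcne4, another small partner, rose in mural cells, from 0.234, 0.201 and 0.524 CPM to 2.16, 2.73 and 2.7 CPM at 4 h (2.97 ± 0.75, adjusted p = 0.00347) and 1.24, 2.72 and 2.09 CPM at 12 h (2.64 ± 0.75, 0.00817). Cumulus libraries of Kcne4 held at most 0.498 CPM, and its rise there at 12 h was not called with the oocyte covariate (2.52). The Kv beta genes differed. Kcnab3 rose at 12 h in mural cells, from 10.8 to 11.6 CPM to 41.8 to 53.5 CPM (2.12 ± 0.26, 2.61e-06), and in cumulus cells, from 2.44 to 3.49 CPM to 16.8 to 20.5 CPM (2.63 ± 0.27, 1.53e-07). Kcnab1 rose at 4 h and was below 0 h at 12 h in both cell types. Kcnab2 fell in mural cells at 4 h and in cumulus cells at 12 h. Kcnip3 fell in mural cells at 4 h, Kcnip4 fell in cumulus cells at both times and Kcnip1 and Kcne3 fell in cumulus cells at 12 h.

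Of 8 pore genes in the families of the calcium- or sodium-activated channels, 0 rose and 4 fell in mural cells at 4 h (all genes 22.8% and 22.3%). In cumulus cells 0 rose and 5 fell (25% and 22.8%). By 12 h Kcnma1 and Kcnn4 rose and Kcnt2 fell in mural cells (21.6% and 19%). In cumulus cells Kcnn4 rose and Kcnma1, Kcnn2 and Kcnt2 fell by 12 h (31.2% and 32.9%). The 8 were grouped by family, and not each is itself opened by calcium or sodium. Kcnma1 encodes the BK channel, opened by voltage and calcium together. Mural libraries held 24.6, 28 and 28.4 CPM at 0 h, 17.6, 13.2 and 19.1 CPM at 4 h and 60.2, 58.2 and 63.7 CPM at 12 h. Cumulus libraries held 67.5, 65.9 and 62.1 CPM, then 29.9, 26.5 and 32.9 CPM, then 37.2, 55.7 and 48 CPM. It dipped in both at 4 h, by 0.70 ± 0.15 (adjusted p = 0.000673) and 1.13 ± 0.14 (3.97e-06), and at 12 h was above 0 h in mural (1.17 ± 0.14, 3.00e-06) and below it in cumulus cells (-0.47 ± 0.14, 0.00765). For the 12 h changes, cumulus minus mural was -1.64 ± 0.20 (6.78e-06).

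Kcnt1 encodes Slack, a sodium-activated potassium channel, and was among the strongest separators of the cell types. Mural libraries held 83.2, 85 and 72 CPM at 0 h, 129, 81.3 and 103 CPM at 4 h and 59.6, 57.8 and 70 CPM at 12 h. Cumulus libraries held 9.12, 9.44 and 7.38 CPM, then 8.24, 5.28 and 5.2 CPM, then 9.72, 10.2 and 8.77 CPM. Mural levels were 9.26-fold higher at 0 h (adjusted p = 7.81e-10), 16.6-fold at 4 h (8.70e-11) and 6.52-fold at 12 h (4.90e-09). Within cumulus cells the change at 4 h, -0.46 ± 0.18 (0.0436), was lost in 10 of 18 leave-one-out fits and stood at -0.34 (0.172) without cumulus 4 h replicate 3. Its relative Kcnt2 was higher in cumulus cells at 0 h by 0.33 ± 0.11 (0.0239), was not called between the cell types later, and fell in both by 12 h, from 44.9 to 46.3 CPM and 55.4 to 58.3 CPM at 0 h to 17 to 20.3 CPM and 17.1 to 18.9 CPM at 12 h. Kcnn4, the intermediate-conductance calcium-activated channel, rose in cumulus cells at 12 h, from 0.3 to 0.491 CPM to 0.909 to 2.35 CPM (2.07 ± 0.54, 0.00286), or 3.23 and not called with the oocyte covariate. The small-conductance gene Kcnn1 and the sperm-type Kcnu1 fell at 4 h in both cell types and Kcnn2 fell at 12 h in cumulus cells. Kcnn3 was not called against 0 h.

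BK beta subunits tune the calcium sensitivity of the BK pore. Kcnmb4 rose in both cell types, from 3.75 to 5.19 CPM in mural libraries to 9.04 to 14.3 CPM at 4 h (1.36 ± 0.24, adjusted p = 0.000138) and from 1.44 to 1.77 CPM in cumulus libraries to 9.29 to 12.5 CPM (2.78 ± 0.25, 6.35e-08). The rise of Kcnmb4 at 4 h was larger in cumulus cells by 1.42 ± 0.34 (0.00883). Kcnmb1 was lower in cumulus than in mural cells at all 3 times and at most 0.275 CPM on average. Kcnmb2 and Kcnmb3 fell in cumulus cells at 12 h.

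Of 10 tested calcium channel pores, 1 rose and 3 fell in mural cells at 4 h (all genes 22.8% and 22.3%). At 12 h 0 rose and 3 fell there (21.6% and 19%). In cumulus cells 2 rose and 2 fell at 4 h (25% and 22.8%) and 0 rose and 5 fell at 12 h (31.2% and 32.9%). Cacna1a encodes the P/Q-type channel Cav2.1, known for transmitter release at synapses. Mural libraries held 131, 114 and 107 CPM at 0 h, 12.8, 9.14 and 13.5 CPM at 4 h and 11.6, 10.1 and 14.7 CPM at 12 h. Cumulus libraries held 374, 308 and 338 CPM, then 12.7, 16.1 and 12.2 CPM, then 6.92, 7.09 and 8.37 CPM. All libraries of 0 h stood far above all later ones, and cumulus libraries above mural ones at 0 h alone. The fall by 4 h was 9.93-fold in mural cells (-3.31 ± 0.17, adjusted p = 4.81e-11) and 24.9-fold in cumulus cells (-4.64 ± 0.18, 2.46e-12), deeper in cumulus cells (cumulus minus mural -1.33 ± 0.22, 0.000598). By 12 h it was 9.66-fold and 45.5-fold, a difference of -2.24 ± 0.23 (7.42e-07).

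Cacna1d encodes the L-type channel Cav1.3, which opens at low voltage and can pace cells. It declined step by step. Mural libraries held 54.6, 55.7 and 58.3 CPM at 0 h, 14.3, 13.4 and 14.2 CPM at 4 h and 5.22, 3.41 and 5.11 CPM at 12 h. Cumulus libraries held 18.8, 18.5 and 20.4 CPM, then 7.54, 6.19 and 10.9 CPM, then 1.42, 0.791 and 1.37 CPM. No times overlapped in either cell type, and mural libraries were above cumulus libraries at each time. By 12 h Cacna1d fell by 3.62 ± 0.22 in mural (adjusted p = 3.74e-10) and 4.00 ± 0.24 in cumulus cells (9.56e-11), with a difference of -0.39 ± 0.30 that was not called (0.323). The antisense gene Chdh shares 4.67% of its exon bases and stood at 35.7 CPM in cumulus cells at 4 h.

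Cacna1c, the L-type channel Cav1.2, rose at 4 h by 0.66 ± 0.21 in mural (adjusted p = 0.0149) and 1.25 ± 0.21 in cumulus cells (9.06e-05), and was not called against 0 h at 12 h. Cacna1h, a T-type channel, was at 44, 46.3 and 60.2 CPM in mural libraries of 0 h and 49.8 to 76.8 CPM later, with no call. In cumulus libraries it was at 4.56, 20.1 and 17.6 CPM, then 21, 17.7 and 74 CPM, then 4.23, 3.14 and 4.25 CPM. Its high library of 4 h was replicate 3 and its low library of 0 h replicate 1, the 2 that stand apart. In cumulus cells Cacna1h rose at 4 h (1.41 ± 0.46, 0.0185) and fell by 12 h (-1.87 ± 0.49, 0.00305). Cacna1s (L-type, of skeletal muscle) fell in mural cells at both times, from 0.938 to 0.217 and 0.0551 CPM, and in cumulus cells by 12 h. Cacna1i fell in cumulus cells at 12 h. Cacna1b, Cacna1e, Cacna1f and Cacna1g were not called against 0 h and stayed at or below 1.04 CPM on average.

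Of 11 tested auxiliary calcium channel subunits, 2 rose and 0 fell in mural cells at 4 h and 3 rose and 3 fell at 12 h, and in cumulus cells 4 rose and 2 fell and then 3 rose and 5 fell. Of all genes, 22.8% rose and 22.3% fell, 21.6% and 19%, 25% and 22.8%, and 31.2% and 32.9% in the same order. Cacna2d1 encodes an alpha2delta subunit, which carries pores to the membrane and binds gabapentin. Mural libraries held 106, 100 and 88.9 CPM at 0 h, 221, 215 and 221 CPM at 4 h and 116, 137 and 133 CPM at 12 h, and cumulus libraries 54.3, 49.8 and 43.9 CPM, then 83.5, 89.5 and 71.1 CPM, then 69.7, 68.5 and 62.2 CPM. The 4 h rise was 1.16 ± 0.11 in mural (adjusted p = 9.84e-08) and 0.72 ± 0.11 in cumulus cells (2.30e-05), and mural cells held more at every time. At 12 h the rises of 0.39 ± 0.11 (0.00689) and 0.44 ± 0.11 (0.00173) were not called with library totals in place of scaled totals (0.21 and 0.19), and the latter was -0.35 with the oocyte covariate.

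Cacnb3 encodes a beta subunit, which binds the pore from the inside of the membrane. Mural libraries held 31.3, 34.1 and 33.5 CPM at 0 h, 57.3, 37.4 and 43.9 CPM at 4 h and 46, 50.9 and 43.5 CPM at 12 h. Cumulus libraries climbed from 12, 13.2 and 12.7 CPM to 29.9, 18.9 and 32.2 CPM and 55.4, 59.4 and 65 CPM. The rise by 12 h was 2.24 ± 0.17 in cumulus cells (adjusted p = 3.82e-09), larger than in mural cells by 1.74 ± 0.24 (1.99e-05). In mural cells the rises of 0.48 ± 0.17 at 4 h (0.0239) and 0.50 ± 0.17 at 12 h (0.0211) were small. The former ended in 6 leave-one-out fits, with 0.25 without mural 4 h replicate 1, the latter without mural 0 h replicate 1 (0.46) or mural 12 h replicate 2 (0.44), and both with library totals (0.17 and 0.32). Cacnb1 rose in cumulus cells from 2.4 to 2.68 CPM to 9.78 to 10.7 CPM at 12 h (2.02 ± 0.16, 4.95e-09) and by 0.42 ± 0.15 in mural cells (0.0354).

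The other beta and alpha2delta genes went down or were flat. Cacnb4 fell at 12 h in both cell types, Cacnb2 fell in cumulus cells at 12 h, Cacna2d2 fell in mural cells at 12 h and Cacna2d3 in cumulus cells at 12 h. Of the gamma genes, several of which are better known as partners of glutamate receptors, Cacng4 fell at 12 h in both cell types, Cacng7 rose at 4 h and fell by 12 h in cumulus cells, and Cacng5 and Cacng8 fell at 4 h in cumulus cells. None of these 8 passed 5.99 CPM on average in mural cells.

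**Figure D4:**
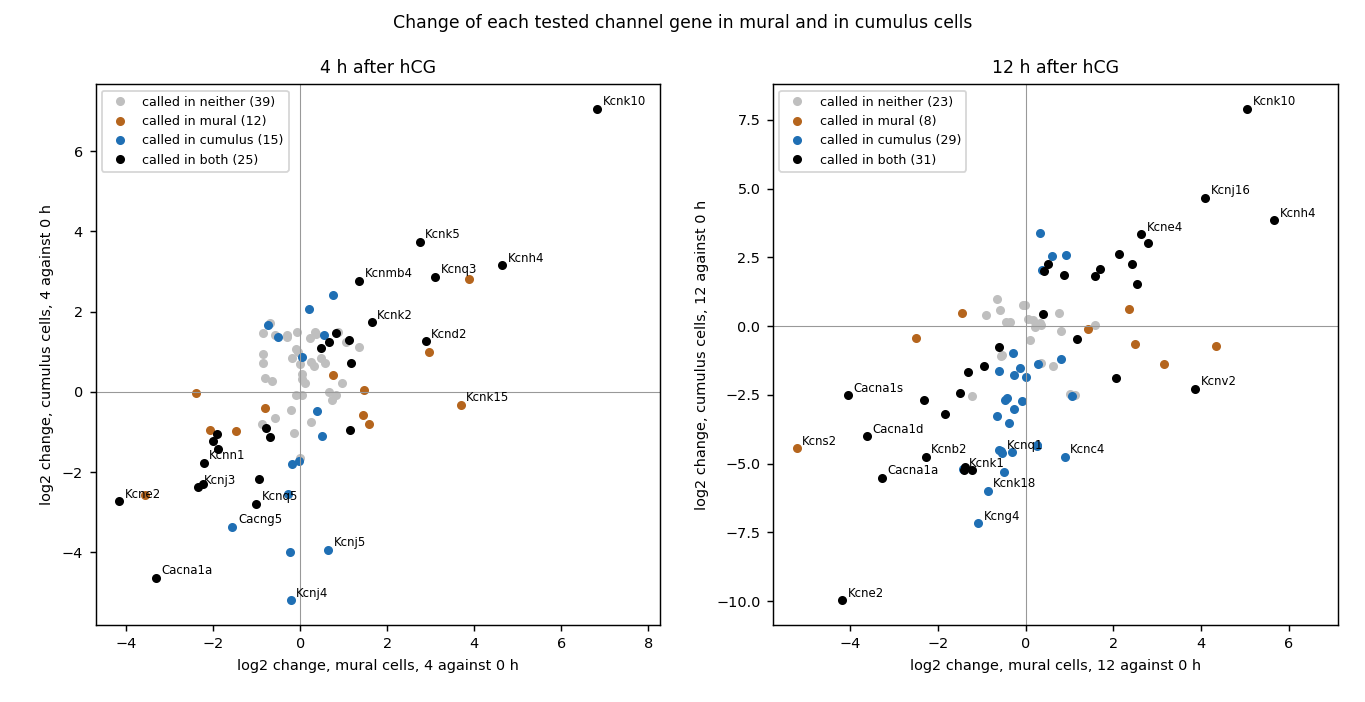
Log2 change from 0 h in mural cells (horizontal) against that in cumulus cells (vertical) for the 91 tested channel genes, at 4 h and at 12 h, coloured by the cell types in which the change is called. At 4 h 25 genes are called in both cell types, 12 in mural only, 15 in cumulus only and 39 in neither, and at 12 h 31, 8, 29 and 23, with the cumulus-only points mostly below 0.

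Set side by side, 12 channel genes rose at 4 h in both cell types (15.9% of all genes did) and 12 fell in both (15%). The risers were Kcnk2, Kcnk5, Kcnk10, Kcnj14, Kcnd2, Kcnq3, Kcnh4, Kcnab1, Kcnmb4, Cacna1c, Cacna2d1 and Cacnb3. The fallers were Kcnk1, Kcnj3, Kcnb2, Kcnq5, Kcne2, Kcnip2, Kcnma1, Kcnn1, Kcnt2, Kcnu1, Cacna1a and Cacna1d. At 12 h 14 rose in both (16.3%) and 14 fell in both (12.5%). A further 25 were called lower in cumulus cells and not called in mural cells, as were 18.9% of all genes, and 4, Kcnh6 and Kcnk6 among them, were called higher in cumulus cells and not in mural cells (13.1% of all genes). A call in one cell type and not in the other does not show that the changes differ, and the differences tested are those given above.

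Some channel genes varied between cumulus libraries along with the oocyte markers. Of the 91, 23 (25.3%) had their highest level of all 18 libraries in cumulus 4 h replicate 3, as did 21% of all genes. In 13 (14.3%, all genes 8.71%) replicate 1 was also the lowest at 0 h, replicate 2 the lowest at 4 h and every 12 h library below every 0 h library, which is the order of the oocyte marker sum. This order was looked for after the data were seen. The 13 were Kcnh1, Kcnh3, Kcnh7, Kcnq1, Kcnk13, Kcnk18, Kcnmb2, Kcnip1, Kcnn2, Kcng2, Cacna1i, Cacna2d3 and Cacng7. Kcnh1 encodes EAG1 and was at 11.7, 53.8 and 60.4 CPM in cumulus libraries of 0 h, 62.4, 44.4 and 232 CPM at 4 h and 5.76, 8.44 and 5.31 CPM at 12 h, against 2.58 to 14.9 CPM in mural libraries. Kcnk13, the THIK-1 leak channel, was at 1.58, 10.2 and 10.1 CPM, then 11.2, 6.53 and 38.8 CPM, then 0.414, 0.41 and 0.238 CPM. Both were listed for sharing this order, so that they follow the marker sum is no separate observation. In each, replicate 3 of 4 h was far above the rest.

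Kcnk18, the calcineurin-regulated leak channel TRESK, held 1.04, 5.7 and 8.25 CPM, then 6.6, 6.28 and 29.5 CPM, then 0.0591, 0.0293 and 0.132 CPM. Kcnmb2, a BK beta subunit, held 1.37, 12.5 and 12.9 CPM, then 15.9, 8.07 and 49.5 CPM, then 0.0887, 0.235 and 0.343 CPM. Genes of that order have every cumulus library of 12 h below every one of 0 h by choice. That Kcnh1, Kcnk13, Kcnk18 and Kcnmb2 fell is thus no separate observation, and the p-values lend it no weight. For these 4 the fall from 0 to 12 h in cumulus cells was 2.69 ± 0.68 (Kcnh1, adjusted p = 0.0022), 4.36 ± 0.77 (Kcnk13, 9.16e-05), 6.0 ± 0.95 (Kcnk18, 2.81e-05) and 5.29 ± 0.95 (Kcnmb2, 0.000107). With the oocyte marker sum as a covariate the same changes were 4.70, 3.07, 1.17 and 3.44, opposite in sign. None of the 4 was called between 0 and 4 h in cumulus cells, where replicates spread widely, and their excess over mural cells at 0 h was 2.12 to 2.46. That call ended for all 4 without mural 0 h replicate 1 (1.71 to 2.08), mural 0 h replicate 2 (2.01 to 2.28) or cumulus 0 h replicate 3 (1.57 to 2.12), and for Kcnk13, Kcnk18 and Kcnmb2 without cumulus 0 h replicate 2 (1.92 to 2.15). The part of oocyte RNA in the other cumulus values was not tested beyond that covariate.

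**Figure D5:**
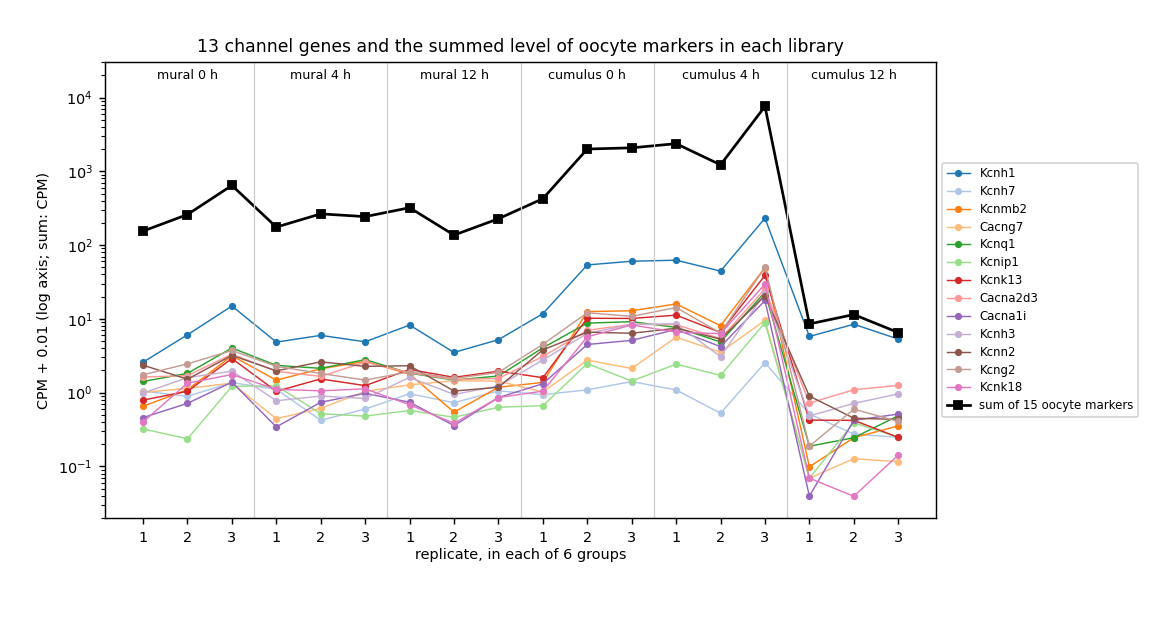
Level of the 13 channel genes with that order and the summed level of 15 oocyte markers in each of the 18 libraries (CPM, log axis). Lines join libraries for reading and the order of replicates carries no meaning; the marker sum and each gene peak in cumulus 4 h replicate 3, and their cumulus libraries of 12 h lie below those of 0 h.

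Genes listed as markers of other cells were also present, and a listed gene need not be confined to those cells. Summed over each list, theca markers held 2809 to 7087 CPM in mural and 279 to 1429 CPM in cumulus libraries, and smooth muscle and pericyte markers 157 to 284 CPM and 89.8 to 227 CPM. Hsd3b1 and Star carried most of the theca sum in mural cells. Star went from 21.6 to 3113 and 1369 CPM there on average, while Hsd3b1 went from 4246 to 2486 and 1327 CPM and Cyp17a1 from 114 to 27.2 and 4.73 CPM. Insl3 went from 0.867 to 0.422 and 0.296 CPM and Col1a2 from 329 to 221 and 126 CPM in mural cells. Aldh1a1 went from 269 to 76.2 and 50.1 CPM and Ptch1 from 77.1 to 79.2 and 84.6 CPM. In mural libraries the erythroid sum was 87.7 to 145 CPM at 0 h, 449 to 700 CPM at 4 h and 380 to 734 CPM at 12 h. The endothelial sum lay between 34.4 and 54.9 CPM in mural libraries of 0 h and between 131 and 162 CPM in those of 12 h. In cumulus libraries it lay between 16.8 and 24.5 CPM at 0 h and between 164 and 201 CPM at 12 h. Cdh5 carried most of both sums at 12 h, going from 17.6 to 127 CPM in mural and from 4.01 to 164 CPM in cumulus cells on average. Kdr went from 7.67 to 9.34 CPM and from 0.386 to 20.6 CPM. Pecam1, Tek, Emcn, Tie1 and Vwf averaged less at 12 h than at 0 h in both cell types, and Cldn5 less in cumulus cells. Kcnj8 and Abcc9, which are also known from pericytes and smooth muscle, were both highest in mural cells at 4 h. The smooth muscle and pericyte sum in mural libraries was 159 to 238 CPM at 0 h, 157 to 223 CPM at 4 h and 268 to 284 CPM at 12 h. Smtn carried most of its increase at 12 h, averaging 65.9, 59.2 and 138 CPM at 0, 4 and 12 h. Other genes of the list took different courses in mural cells. Rgs5 averaged 3.59, 4.4 and 1.998 CPM, Acta2 58.7, 54.3 and 54.8 CPM, Myh11 22.5, 14.4 and 12.1 CPM and Tagln 11.1, 22.8 and 25.4 CPM. In cumulus cells at 12 h Smtn and Cspg4 made up most of the smooth muscle and pericyte sum, at 114 and 82.4 CPM on average. The part of any of these other cells in the channel values was not tested.

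Genes that work beside the channels were counted from lists. For all of them the shares over all genes, higher and lower, were 22.8% and 22.3% in mural cells at 4 h, 21.6% and 19% at 12 h, 25% and 22.8% in cumulus cells at 4 h and 31.2% and 32.9% at 12 h. Of 13 tested channel partners, 3 rose and 3 fell in mural cells at 4 h, 6 and 2 at 12 h, and in cumulus cells 4 and 2 at 4 h and 5 and 6 at 12 h. Rrad and Gem encode small GTPases that bind beta subunits and curb calcium channels. Rrad went from 2.92 ± 0.522 CPM (SD) to 19.2 ± 5.30 and 42.5 ± 5.03 CPM in mural cells (2.71 ± 0.20 and 3.86 ± 0.21) and from 0.138 ± 0.0403 to 6.54 ± 0.595 and 8.30 ± 0.859 CPM in cumulus cells (5.53 ± 0.27 and 5.88 ± 0.27). Gem rose at 4 h from 15.1 ± 0.33 to 97.7 ± 35.1 CPM in mural and from 15.9 ± 1.92 to 85.4 ± 31.0 CPM in cumulus cells. Each of these rises had an adjusted p of at most 1.34e-07.

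Of 21 genes of calcium stores, pumps and store-operated entry, 6 rose and 2 fell in mural cells at 4 h and 6 and 4 at 12 h. In cumulus cells 7 rose and 5 fell at 4 h and 10 and 5 at 12 h. Itpr3, a receptor that releases stored calcium, rose in cumulus cells by 12 h (3.58 ± 0.16), and the sodium-calcium exchanger gene Slc8a1 fell there (-3.44 ± 0.12). Of 20 calcium sensor genes, 9 rose and 7 fell in mural cells at 4 h, 9 and 3 at 12 h, and in cumulus cells 7 and 5 and then 14 and 4. Of 27 other cation and anion channels, 5 rose and 14 fell in mural cells at 4 h, 4 and 8 at 12 h, and in cumulus cells 4 and 11 and then 12 and 9. Hcn4, a pacemaker channel, rose in mural cells at 12 h from 0.171 to 14.6 CPM (6.37 ± 0.48). Of 10 sodium-potassium pump genes, 3 rose and 4 fell in mural cells at 4 h, 1 and 4 at 12 h, and in cumulus cells 0 and 4 and then 2 and 5.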

How the data were processed

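The deposited values are whole-number counts of reads per gene that the name of the table calls unique, for 41325 rows and 18 libraries. RNA came from RNeasy kits and libraries from a stranded mRNA kit, per the labels' protocols. CLC Genomics Workbench with default settings did the alignment and counting, per the series' design text, and the genome build was GRCm38, per the submitters' processing notes. Which version, gene annotation and strand option were used is not given in the sources used here.

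A model was fitted with edgeR 4.0.16 under R 4.3.3. Its filter for low expression (minimum count 10) kept 19941 genes with 99.96% of the reads. Counts were scaled by trimmed means of M values (TMM, factors 0.849 to 1.177), CPM use these scaled totals, and a quasi-likelihood model with 6 group means was fitted to all 18 libraries with robust estimation. From it came 11 contrasts, each adjusted by the Benjamini-Hochberg method over those genes. On data simulated for mural cells at 4 against 0 h with 18948 genes, 53% of genes changed 2-fold and 100% of those changed 4-fold were called. The changed genes, 100 for each fold, were drawn from genes with counts well above the filter. All genes were given the same spread. The shares called therefore do not apply to channel genes near the floor or with a wider spread.

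Members by symbol, roles and lists were chosen with earlier results of these data known. For 29 members values by library were chosen by rule: the 3 largest called rises and falls of each comparison of 2 groups, whose higher group averaged at least 1 CPM and did not overlap the lower, and the 5 highest levels per length. Others were named after their values were seen. The alternative fits included these members too, but only their part in the counts of calls is given. Positions and exon lengths come from GENCODE M21 (GRCm38).

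Alternatives were DESeq2 1.42.0, library totals, no expression filter, a replicate block, only the groups compared, limma 3.58.1 with library weights, the fit without the 2 cumulus libraries that stand apart, the oocyte marker sum as a covariate, and 18 fits leaving out a library. Same-numbered libraries of the cell types deviated together at 4 h (correlations of deviations 0.195, 0.121 and 0.186). The correlations were 0.607, -0.0915 and 0.479 at 0 h and weak but positive at 12 h (0.0410, 0.0152 and 0.0306). Mural libraries of 4 h and cumulus libraries of 0 h, which differ in time, also gave positive values (0.161, 0.0472 and 0.115). A block on the 6 libraries of 4 h was added after the data were seen, and none was fitted on those of 0 or 12 h alone. Intervals and floors cover counting error only. Some of the genes counted are not reported here by name, in text or figures.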

Additional observations from a re-analysis of the deposited data

Results flagged for a closer look

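For the following channel genes the change from 0 h differed between the cell types (edgeR's quasi-likelihood test of the difference, adjusted p under 0.05). Values are the log2 change in cumulus cells minus that in mural cells. For the change to 4 h the difference was 2.37 for Kcnh2 and 0.99 for Kcnk5. It was -0.85 for Kcnt1, -1.33 for Cacna1a, -1.61 for Kcnd3, -2.36 for Kcna7 and -4.57 for Kcnj5. The values of Kcnk5, Kcnt1 and Kcna7 were not called in 4, 8 and 4 leave-one-out fits.

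For the change to 12 h the difference was 3.05 for Kcnh6, 2.85 for Kcnk10, 2.08 for Kcnh2 and 1.74 for Cacnb3. Pores and subunits that went lower in cumulus than in mural cells were Kcna7 (-1.74), Cacna1a (-2.24), Kcnj5 (-3.60), Kcnd3 (-3.73), Kcnip2 (-4.26) and Kcnc4 (-5.64). So were the silent subunits Kcng4 (-6.10) and Kcnv2 (-6.14) and the auxiliary Kcne2 (-5.79), whose cumulus libraries of 12 h held 0 counts. The leak channels Kcnk13 (-4.62) and Kcnk18 (-5.14) and the BK beta subunit Kcnmb2 (-4.80) are among the genes that varied with the oocyte markers. The values of Kcna7 and Kcng4 were not called in 7 leave-one-out fits each.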

How the results depend on the processing

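Of 195 called values of the 29 genes named by rule, recomputed 5079 times over 27 alternatives, 4843 kept direction and call, 209 lost the call and 27 changed sign, and 116 held throughout. With only the groups compared, genes called higher became 17 (mural 12 against 4 h), 10 (cumulus 4 against 0 h), 12 (cumulus 12 against 4 h), 5 (cumulus against mural at 12 h) and 3 (difference at 4 h), and lower 18 (cumulus against mural at 4 h). Limma with weights gave 18 (mural 12 against 4 h), 7 (cumulus against mural at 12 h), and 10 higher and 16 lower for the difference at 4 h. With the oocyte covariate, higher calls were 6 (cumulus 12 against 4 h), 10, 4 and 7 (cumulus against mural at 0, 4 and 12 h), and lower calls 11 and 11 (cumulus 12 h against 0 and 4 h), 20 (cumulus against mural at 12 h) and 12 (difference at 12 h). The shares over all genes under these alternatives are not given here, so such counts are not set against all genes.

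Over all 18 libraries the replicate block ended none of the 195 calls. Over the 6 libraries of 4 h the block gave 18 genes lower in cumulus cells and ended the call of Kcnv2. Leaving out a library gave, higher and lower, 12 to 21 and 13 to 18 (mural 4 h), 19 to 22 and 16 to 17 (mural 12 h), 6 to 16 and 14 to 16 (mural 12 against 4 h), 16 to 26 and 19 to 23 (cumulus 4 h), 18 to 19 and 39 to 45 (cumulus 12 h), 17 to 21 and 42 to 45 (cumulus 12 against 4 h). Cumulus against mural it gave 11 to 24 and 22 to 28 at 0 h, 19 to 24 and 24 to 30 at 4 h, 2 to 4 and 38 to 49 at 12 h, and for the differences 4 to 9 and 7 to 13 at 4 h and 7 to 10 and 26 to 36 at 12 h.

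Sign changed with the oocyte covariate for Cacna2d1 (cumulus 12 h, -0.35), Kcng4 (cumulus 12 h 1.06, 12 against 4 h 0.75, against mural at 4 h -0.57, difference at 12 h 1.48), Kcnh1 (4.70, and 4.54 against 4 h), Kcnj8 (4.30 against 4 h, and 0.14 there with limma weights) and Kcnk10 (-0.89 against 4 h). So it did for Kcnk13 (3.07, 2.93 against 4 h, -0.11 and 2.18 against mural at 4 and 12 h, difference 2.12), Kcnk18 (1.17, 0.81 against 4 h, -0.012, -0.14 and 1.45 against mural at 0, 4 and 12 h, difference 1.46), Kcnmb2 (3.44, 3.28 against 4 h, -0.063 and -1.01 against mural at 0 and 4 h, difference 3.21) and Kcnt1 (-0.00149 against 4 h). The cause was not tested. Kcnj8 in cumulus cells at 12 against 4 h has no value without cumulus 4 h replicate 3. Library totals moved the median change of all genes, most at mural 4 h, from -0.06 to -0.38. Genes near the floor are limited by depth.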
